A study of Mus musculus with 15 samples.

Results

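Transcripts of 42 genes of the interferon response and of MHC class I antigen presentation were compared between cultures of adult neural stem cells (aNSCs) with and without deletion of Trrap. The members were taken by name from a list of interferon-stimulated, RNA sensing and MHC class I genes, and all 42 were found among the 53801 genes of the count table. They fell into 6 role classes. Antiviral effectors made up 16 members, transcription factors 4, RNA sensors and their partners 7, an ADP-ribosylation module 3, the MHC class I pathway 9 and guanylate-binding proteins 3.

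The cells came from the subventricular zone of mice labelled as 2 months old, of a mixed C57BL6/J-129sv background, and every culture carried the Rosa26-CreERT2 transgene. Trrap, an adaptor protein of several histone acetyltransferase complexes, carried loxP sites on 1 allele (Trrap Fl/+) or on both (Trrap Fl/Fl). 4-hydroxytamoxifen (4-OHT) activates CreERT2, so that treated Fl/+ cultures are heterozygous controls that can lose 1 Trrap allele, and treated Fl/Fl cultures can lose both. The 15 RNA-seq libraries formed 3 groups of 5: untreated Fl/+, Fl/+ with 4-OHT and Fl/Fl with 4-OHT. No time is given for the untreated libraries, and the treated ones were taken 5 days after the start of treatment. The labels give 4-OHT for that whole time, whereas the study's methods end it with a change to fresh medium before harvest. Both Fl/+ groups came from mice 19, 24, 26, 35 and 36, and the Fl/Fl cultures from mice 27, 28, 29, 37 and 39. Mice 24, 26, 37 and 39 are labelled female and the others male. Among mice 35 to 39 labelled sex therefore coincides with genotype, and among mice 19 to 29 all Fl/Fl mice are labelled male. No untreated Fl/Fl culture was analysed here, and the Cre is not restricted to a cell type. Values of a group are listed below in this order of mouse numbers.

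Interferons bind cell surface receptors whose Janus kinases phosphorylate STAT proteins, and complexes of STAT proteins with IRF9 then switch on interferon-stimulated genes through a short promoter element. Many of these genes act against viruses, some sense foreign or misplaced RNA, and others cut peptides and load them onto MHC class I molecules for display on the cell surface. Neural cells keep antigen presentation low at rest, and stem cells hold some of these genes at a basal level of their own.

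The libraries held 25720034 to 32187097 assigned counts. Mitochondrial genes made up 1.72 to 3.56% of counts in untreated Fl/+, 0.85 to 1.74% in treated Fl/+ and 1.36 to 2.19% in Fl/Fl libraries. Whether this had a part in the members' values was not tested. Trrap itself lay at 104 ± 24.2 CPM (counts scaled to a common library size; mean ± SD, n = 5) in Fl/Fl 4-OHT, 164 ± 26.4 CPM in Fl/+ 4-OHT and 190.1 ± 14.3 CPM in untreated Fl/+ cultures, and library Fl/Fl 29, at 142 CPM, was not below all treated Fl/+ libraries, which spanned 138 to 204 CPM. Library Fl/Fl 39 is labelled female but had 0.313 CPM of Xist and 54.0 CPM of the Y-linked Ddx3y, and Fl/+ 4-OHT 36, labelled male, had 74.7 CPM of Xist beside 52.9 CPM of Ddx3y. The untreated library of mouse 36 had 5.89 CPM of Xist, and the other libraries labelled male had 0.154 to 0.541 CPM. The number of members called is therefore also given without Fl/Fl 39 and without Fl/+ 4-OHT 36. Fits with labelled sex as covariate use the labels as given, so that they take Fl/Fl 39 as female. Neural stem cell markers were abundant, with Nes at 489 to 1383 CPM and Sox2 at 200.1 to 509 CPM. Of 14 markers of microglia and macrophages, 10 did not exceed 3 counts in any library, among them Aif1, Cx3cr1, Itgam, Ptprc and Tyrobp, and 4 of 5 lymphocyte markers stayed at or below the same limit. Of the others, the lysosomal protein Cd68 had 1.94 ± 0.358 CPM in untreated Fl/+, 2.87 ± 0.412 CPM in treated Fl/+ and 4.91 ± 1.49 CPM in Fl/Fl cultures. Csf1r had 0.0338 to 0.173 CPM in treated Fl/+ and 0.197 to 0.868 CPM in Fl/Fl libraries, with no overlap, and P2ry12 had means of 0.212 and 0.535 CPM. Library Fl/Fl 37 stood apart with the highest summed level of the oligodendrocyte lineage markers (2652 CPM, against 1044 CPM in the lowest Fl/Fl library) and of astrocyte markers (7422 CPM).

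Promoter sequence from RefSeq (build GRCm38.p6, 250 bases before to 50 after an annotated start) was matched for 34 of the 42 members. The letters GAAA, any 2 bases and another GAAA, the core of the interferon-stimulated response element (ISRE) to which complexes of STAT proteins with IRF9 bind, were searched on both strands. They occurred in at least 1 promoter of 14 matched members, and in 14 of 41 member promoters (34.1%) against 3.44% of all 32851 promoters in the table. The letters TTCNNNGAA, the core of the gamma-activated sequence (GAS) that STAT dimers bind, occurred in 24.4% of member promoters and 8.30% of all, and they overlapped an ISRE match at 2 places. Below are windows around the ISRE matches of members on which the results turn, each written 5′ to 3′ in the direction of transcription. Capitals mark the ISRE letters, which read TTTC, any 2 bases and TTTC when they lie on the opposite strand, and overlapping matches run together.

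The first 5 belong to members that were higher in the Fl/Fl cultures, and they show matches on the opposite strand at distances that differ from gene to gene.
Ifit1, chr19:34640755-34640843, plus strand: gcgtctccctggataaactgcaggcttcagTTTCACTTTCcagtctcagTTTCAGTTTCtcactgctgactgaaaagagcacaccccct
Rsad2, chr12:26456533-26456602, minus strand: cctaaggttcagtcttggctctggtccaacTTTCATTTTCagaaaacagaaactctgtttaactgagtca
Ddx58, chr4:40239784-40239853, minus strand: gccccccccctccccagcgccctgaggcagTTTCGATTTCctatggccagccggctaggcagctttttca
Gbp3, chr3:142559969-142560044, plus strand: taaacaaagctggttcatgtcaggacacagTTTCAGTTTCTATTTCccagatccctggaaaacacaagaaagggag
Gbp7, chr3:142530253-142530322, plus strand: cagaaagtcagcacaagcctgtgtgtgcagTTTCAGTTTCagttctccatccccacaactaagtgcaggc

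Isg15, the member with the most ISRE matches (3, overlapping), was too low for the main test in the comparison of Fl/Fl with Fl/+ 4-OHT cultures.
Isg15, chr4:156200845-156200926, minus strand: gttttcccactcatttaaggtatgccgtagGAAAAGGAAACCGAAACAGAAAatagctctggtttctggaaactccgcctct

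Stat2, B2m and Ifitm3 carry the same letters but followed other courses, as described further on.
Stat2, chr10:128270248-128270315, plus strand: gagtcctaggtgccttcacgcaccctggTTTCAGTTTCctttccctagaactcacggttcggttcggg
B2m, chr2:122147518-122147587, plus strand: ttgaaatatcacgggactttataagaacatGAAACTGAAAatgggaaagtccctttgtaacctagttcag
Ifitm3, chr7:141010695-141010772, minus strand: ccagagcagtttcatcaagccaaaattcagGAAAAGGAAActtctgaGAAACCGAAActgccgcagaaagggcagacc

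Irf1 had no ISRE match in its window but a GAS match, shown in capitals.
Irf1, chr11:53769894-53769962, plus strand: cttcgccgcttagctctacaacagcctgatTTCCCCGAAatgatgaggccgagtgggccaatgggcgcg

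**Figure D1:**
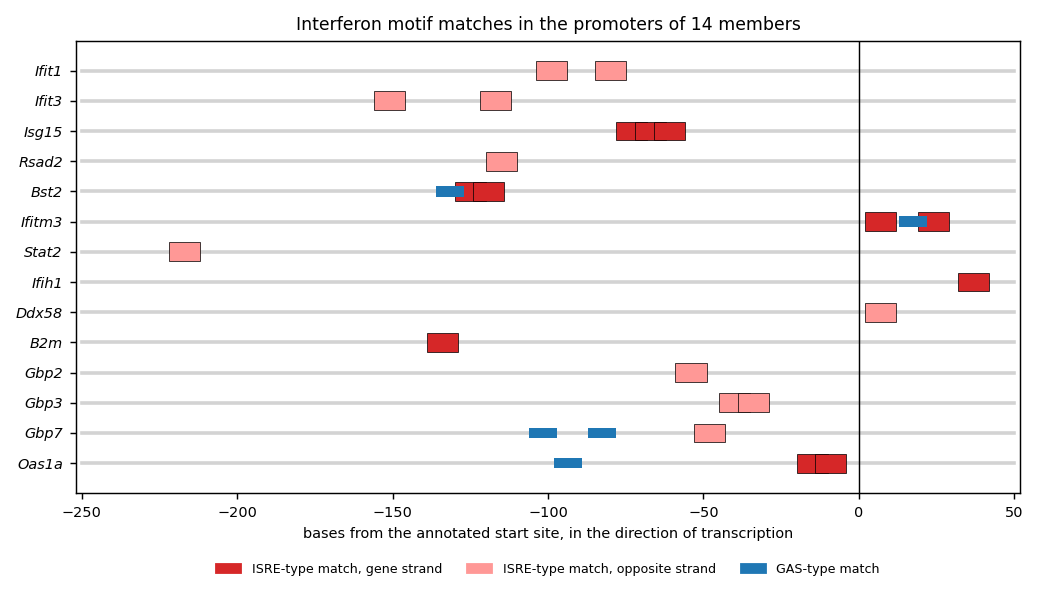
Positions of the ISRE-type and GAS-type letters in the 300-base promoters of the 14 members with an ISRE match, in bases from the annotated start site (0), read in the direction of transcription. Matches lie from 222 bases before the start (Stat2) to 32 bases after it (Ifih1), and Isg15 holds 3 overlapping ones.

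Levels of different genes were compared after division by exon length. Per kb of exon, the member with the highest mean over the 15 libraries was B2m (123 CPM per kb), the invariant light chain of MHC class I, followed by the membrane protein Ifitm3, which restricts virus entry, with 88.4 CPM per kb. The class I heavy chain H2-K1 reached 25.9 and H2-D1 10.8 CPM per kb, while reads shared with related class I genes were left out of the counts, so these 2 are uncertain. The immunoproteasome subunits Psmb8 and Psmb9, which shape peptides for class I, lay far lower at 0.731 and 0.629 CPM per kb. The antiviral effectors spread over the whole order, from Ifitm3 over Ifi27 (16.3 CPM per kb) and Ifit2 (7.97 CPM per kb) to Isg15, a ubiquitin-like modifier, at 0.468, Ifit1, which binds viral RNA caps, at 0.121 and Oasl2 at 0.103 CPM per kb.

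**Figure D2:**
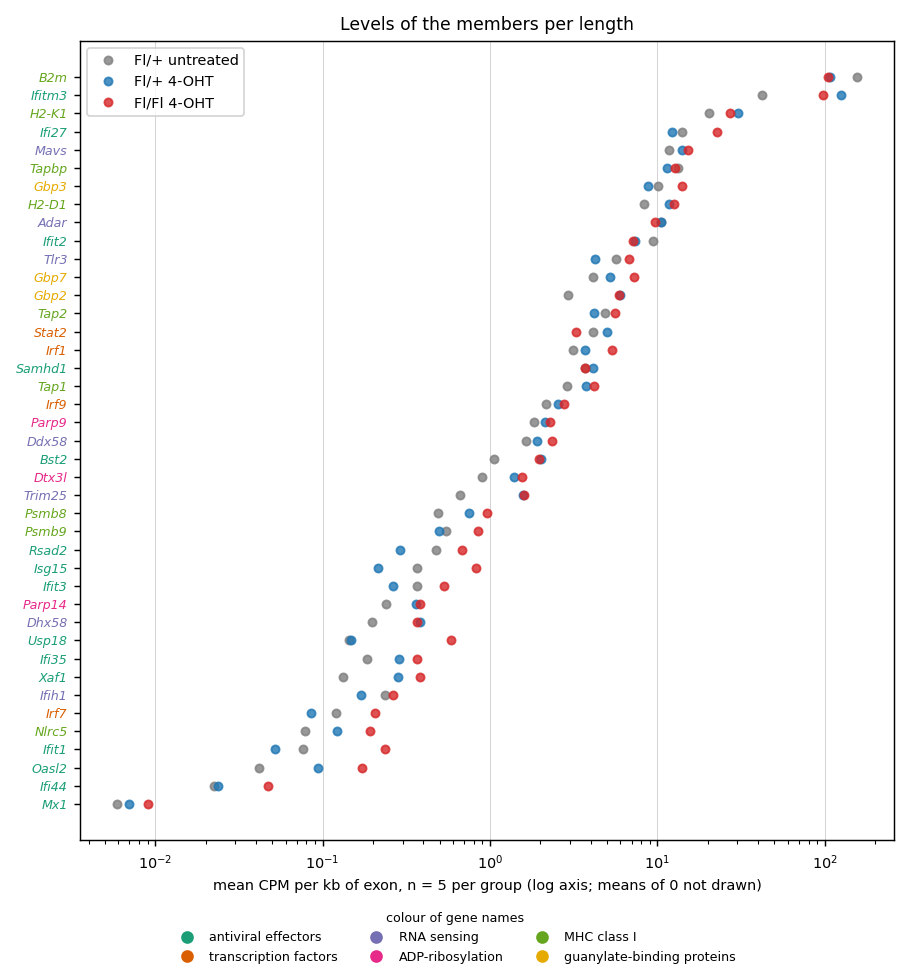
Mean CPM per kb of exon of each member in untreated Fl/+ (grey), Fl/+ 4-OHT (blue) and Fl/Fl 4-OHT (red) cultures, n = 5 each, on a log axis; gene names are coloured by role class, and Oas1a, at 0, is not drawn. Levels span from 0.00733 (Mx1) to 123 CPM per kb (B2m) as means over 15 libraries.

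In all, 3 members were too low for the test in every comparison. Oas1a, an oligoadenylate synthetase, had 0 counts in all 15 libraries, which allows up to 3 counts in a library. Mx1, a dynamin-like antiviral GTPase, reached at most 2 counts and Ifi44 at most 10 counts in a library. Isg15 was also not tested for Trrap deletion, and Ifit1, Isg15, Oasl2 and Usp18 were not tested for 4-OHT alone, which left 38, 35 and 39 members tested for Trrap deletion, 4-OHT and both together.

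Trrap deletion was addressed by Fl/Fl against Fl/+ cultures, both with 4-OHT, and "after deletion" names this comparison. The cultures came from different mice. A difference that the Fl/Fl cultures had before treatment cannot be told apart from one that followed it. Of the 38 members tested, 12 were higher in the Fl/Fl cultures and 1, Stat2, was lower (edgeR quasi-likelihood test, Benjamini-Hochberg adjusted p below 0.05 over 15036 genes). The called share was 34.2%, close to the 31.7% of all genes tested, whereas 31.6% of the members were called higher against 16.8% of all genes, and 2.63% were called lower against 15%. The median log2 fold change of the tested members was 0.24, beside 0.017 over all genes. 3 members (7.89%) had groups that did not overlap, against 22.6% of all genes. The 12 higher members were Ifit1, Rsad2, Usp18, Ifi27, Irf1, Irf7, Ddx58, Tlr3, Tap2, Psmb9, Gbp3 and Gbp7. Of these, Ifit1 passed the low-count filter only through the Fl/Fl libraries, which left 11 of 37 higher without it. The shares and the median above include Ifit1. When each library was left out in turn, 5 of these 11 (Usp18, Ifi27, Irf1, Tlr3 and Gbp7) and Stat2 were called in all 10 fits. The number called higher fell to 7 without library Fl/Fl 28, to 7 without Fl/Fl 39 and to 8 without Fl/+ 4-OHT 36. These counts include Ifit1. Those without Fl/Fl 28 and without Fl/+ 4-OHT 36 also include Isg15, which the main fit did not test and which was above the filter's cutoff in Fl/Fl libraries only. Without Fl/Fl 28 the calls of Rsad2, Tap2, Irf7, Gbp3, Ddx58 and Psmb9 were lost. Within mice 19 to 29 the count was 5 higher and 1 lower, beside 1212 higher and 1568 lower of 15212 genes. Within mice 35 to 39, 2 against 2 libraries, labelled sex coincided with genotype. There edgeR called 0 members and 0 genes in all, with 13 members higher and 1 lower at an unadjusted p below 0.05. Markers of cell types moved in the same comparison. Of 8 neural stem cell markers, Fabp7 (-0.61), Hes5 (-1.005) and Sox2 (-0.33) fell, of 5 neuron markers Dcx (-2.51) and Tubb3 (-1.04) fell, and Cd68 rose by 0.79 (adjusted p = 0.0185), while none of the 5 astrocyte or 6 oligodendrocyte lineage markers was called. Their part in the members' values was not tested.

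4-OHT was addressed in Fl/+ cultures of the same 5 mice with and without treatment. Of 35 members tested, Trim25, Dhx58 and Dtx3l were higher and B2m was lower, 11.4% in all against 13.8% of the 14821 genes tested. The share called higher was 8.57%, beside 7.34% of all genes, and 2.86% were called lower beside 6.45%. The median log2 fold change was 0.26, against -0.011 for all genes. Groups did not overlap for Trim25 and Dhx58 (5.71%), against 12% of all genes (6.52% with the treated group higher and 5.47% lower). With the mouse as a block, 9 members were higher and 3 lower, 34.3% against 25.7% of all genes in the same fit. Ifitm3, Bst2, Xaf1, Stat2, H2-K1 and H2-D1 joined the higher ones, and Ifit2 and Rsad2 the lower ones. Without untreated library 26 or without treated library 36 only 1 member, Trim25, was called higher, and without untreated library 24 there were 5. Within mice 19 to 29 edgeR called 0 higher and 1 lower (6 and 1 at an unadjusted p below 0.05), and within mice 35 to 39 it called 8 higher and 0 lower (16 and 2). In the same fits 713 genes were higher and 529 lower of 14957, and 690 higher and 373 lower of 15039. When libraries were scaled by total counts alone, the genes called across the transcriptome shifted from 1088 higher and 956 lower to 1396 and 712, and the members from 3 to 5 higher. In this comparison 4 of 6 oligodendrocyte lineage markers rose, with Mbp at 4.64 to 44.7 CPM before and 48.1 to 282 CPM after treatment, and the astrocyte marker Gfap rose as well, while the astrocyte markers S100b and Slc1a3 fell. Of 8 neural stem cell markers 3 fell, among them Hes5, and Vim rose. Whether a shift in cell makeup had a part in the members' values was not tested, and a bulk library does not tell fewer cells of a type from less RNA per cell.

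Both changes together were read from Fl/Fl 4-OHT against untreated Fl/+ cultures, which share libraries with the other 2 comparisons. Of 39 members tested, 17 were higher and B2m was lower, 46.2% in all against 30.7% of the 15032 genes tested, and 43.6% higher against 15.7%. The median log2 fold change was 0.64 for the members and 0.0025 for all genes. Groups did not overlap for 10 members (25.6%), against 23.1% of all genes. Ifit1, Isg15, Oasl2 and Usp18 passed the filter mainly through the Fl/Fl libraries, and the shares and the median above include them. Their log2 fold changes in this fit were 1.62, 1.17, 2.03 and 2.04, so that the median is lower without them. Of the 35 others, 13 were higher, and groups did not overlap for 7. Without untreated library 35 the count was 11 higher and 2 lower, and without Fl/Fl 39 it was 12 and 1, with the calls of Irf9, Psmb8, Isg15, Tap1, Ddx58 and Nlrc5 lost. Within mice 19 to 29 it was 11 higher and 2 lower, beside 2492 higher and 2396 lower of 15256 genes, and within mice 35 to 39 it was 1 and 0, beside 3 and 0 of 15077 genes, with 21 and 0 at an unadjusted p below 0.05. Scaling by total counts moved the transcriptome from 2357 higher and 2263 lower genes to 3150 and 1603. Of the 6 oligodendrocyte lineage markers 5 were higher here, and all 5 neuron markers were lower. Of 8 neural stem cell markers 5 were lower, among them Hes5 (-2.88) and Fabp7 (-0.91), the astrocyte marker Gfap was higher and S100b and Slc1a3 were lower. Cd68 was higher (1.35), and the markers' part in the result was not tested.

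**Figure D3:**
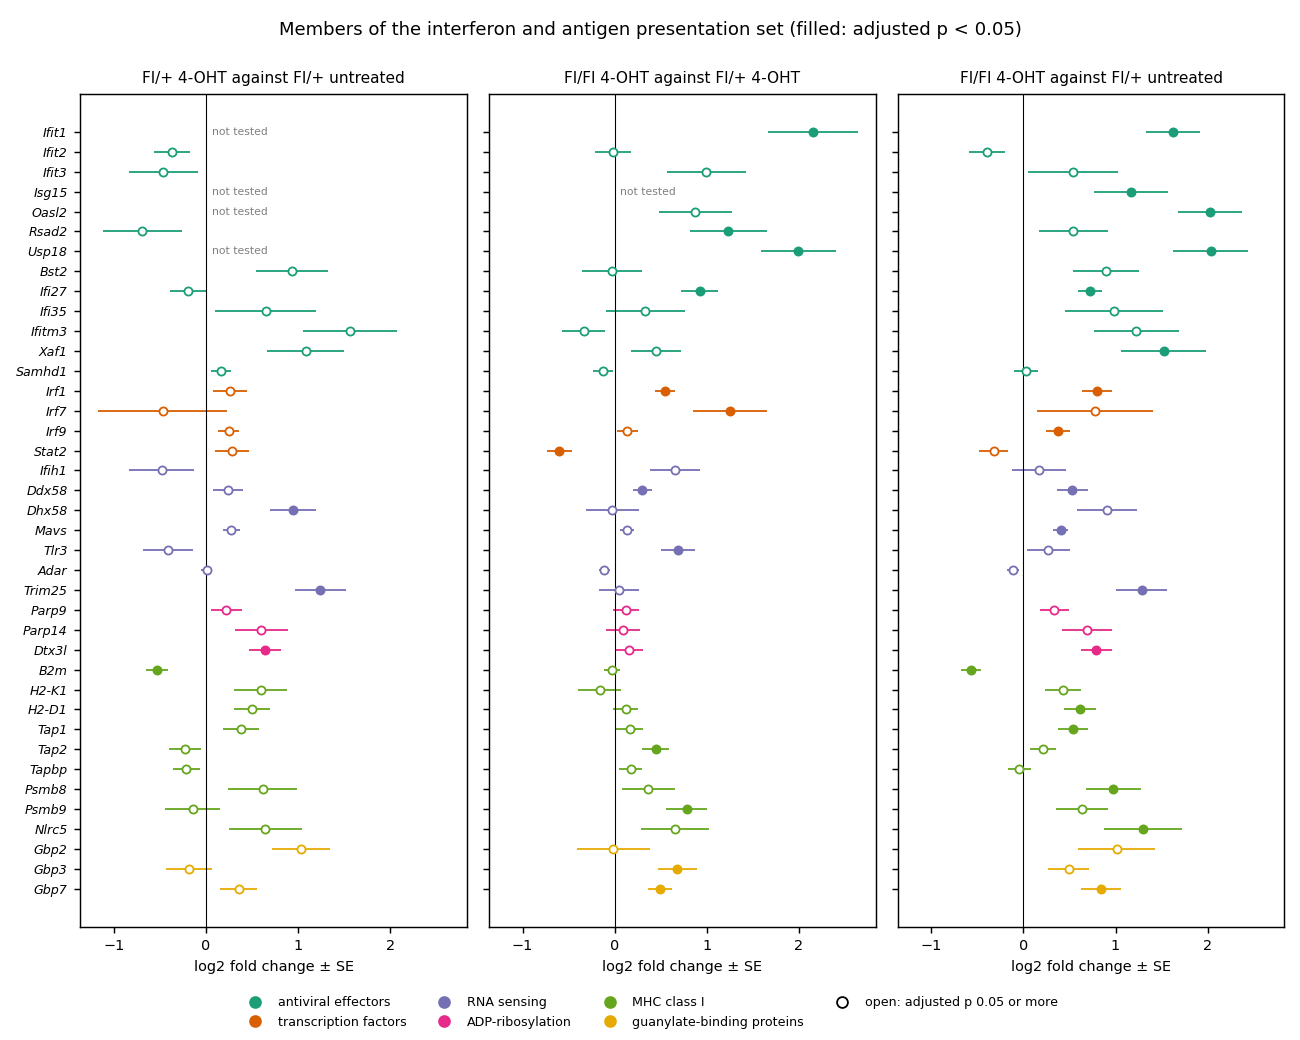
Log2 fold change ± SE of the 39 members tested at least once, in 3 panels for 4-OHT, Trrap deletion and both, from edgeR fits of 5 against 5 libraries; filled points have an adjusted p below 0.05 and colours mark role classes. After Trrap deletion filled points run from -0.60 (Stat2) to 2.15 (Ifit1), and none of the ADP-ribosylation points is filled. Ifit1 passed the filter only through the Fl/Fl libraries, and without it the highest filled point is 2.00 (Usp18).

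Among the antiviral effectors 4 of the 12 tested were higher after Trrap deletion, or 3 of 11 without Ifit1, which passed the filter only through the Fl/Fl libraries, beside 16.8% of all genes. Ifit1 is given in each library although it is low, a choice made after its values were seen. The same holds for every other member given in each library below, apart from Ifitm3, Stat2, Adar, Parp9, B2m and Gbp3, which a rule took as the members with the highest CPM in their classes, without regard to gene length, and Rsad2, Ifi27 and Psmb9, which had the largest changes after deletion above 1 CPM. Untreated Fl/+ libraries had 0.145, 0.279, 0.175, 0.154 and 0.258 CPM of Ifit1, and Fl/+ 4-OHT libraries 0.135, 0.0633, 0, 0.208 and 0.282 CPM. Fl/Fl 4-OHT libraries had 0.528, 0.476, 0.590, 0.851 and 0.695 CPM. Every Fl/Fl library lay above every Fl/+ library, treated or not. Since Ifit1 passed the filter only through the Fl/Fl libraries, where it was high, its test is taken from the fit with no filter, in which it rose by 2.15 ± 0.50 on the log2 scale (SE; adjusted p = 0.00886). The exact two-sided permutation test gave p = 0.00794, the smallest that 5 against 5 allows; with at most 22 counts in a library the size is imprecise.

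Usp18 encodes a protease that removes ISG15 from proteins and dampens interferon receptor signalling. It had 0.868, 0.314, 0.210, 0.346 and 0.258 CPM in untreated and 0.203, 0.285, 0.237, 0.451 and 0.882 CPM in treated Fl/+ libraries. In the Fl/Fl libraries it had 0.870, 1.90, 2.06, 1.31 and 2.01 CPM. Only Fl/Fl 27 fell inside the range of the Fl/+ libraries, just below Fl/+ 4-OHT 36. The rise was 2.00 ± 0.41 on the log2 scale (adjusted p = 0.00411), about 3.99-fold.

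Rsad2 encodes viperin, a radical SAM enzyme that makes an antiviral nucleotide. Its values were 1.70, 3.14, 1.15, 1.31 and 2.95 CPM in untreated Fl/+, 0.777, 2.66, 0.632, 1.11 and 1.13 CPM in Fl/+ 4-OHT and 1.74, 4.69, 2.36, 2.01 and 4.03 CPM in Fl/Fl 4-OHT libraries. The treated Fl/+ libraries were low apart from mouse 24, and all 5 mice had less Rsad2 with than without 4-OHT. The fall with 4-OHT passed the test only with the mouse block (-0.75, adjusted p = 0.0495, against -0.69 and 0.309 without it). The rise after Trrap deletion was 1.24 ± 0.42 (adjusted p = 0.0417) and was lost in 7 of 10 fits that left out 1 library, holding only without Fl/Fl 27, without Fl/Fl 37 or without Fl/+ 4-OHT 24. Against untreated Fl/+ cultures Rsad2 differed by 0.54 ± 0.37 (adjusted p = 0.296).

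Ifi27, an interferon-inducible protein of mitochondria and the nuclear envelope, had the second highest level per kb among the effectors. Its untreated Fl/+ libraries had 20.2, 20.6, 17.6, 24.1 and 19.8 CPM and the treated ones 15.6, 19.2, 11.0, 17.4 and 26.2 CPM. The Fl/Fl libraries held 31.9, 34.3, 34.1, 41.6 and 25.7 CPM. All Fl/Fl libraries exceeded the untreated ones, and only Fl/Fl 39 fell below the highest treated Fl/+ library. Ifi27 rose by 0.92 ± 0.20 (adjusted p = 0.00569) after deletion and by 0.73 ± 0.13 (adjusted p = 0.00221) against untreated Fl/+ cultures.

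Isg15 had 0.181, 0.140, 0.245, 0.346 and 0.479 CPM in untreated, 0.101, 0.0950, 0.119, 0.243 and 0.247 CPM in treated Fl/+ and 0.808, 0.272, 0.492, 0.812 and 0.729 CPM in Fl/Fl libraries. The Fl/Fl libraries all lay above the treated Fl/+ libraries, Fl/Fl 28 by the least (exact two-sided permutation p = 0.00794). Left out of the main fit as too low, Isg15 had a log2 fold change of 1.94 ± 0.42 (adjusted p = 0.00599) when no gene was filtered. Against untreated cultures it differed by 1.18 ± 0.43 with no filter (adjusted p = 0.0820). The filtered fit, which it entered mainly through the Fl/Fl libraries, called it (1.17 ± 0.40, adjusted p = 0.0457), but of the fits without 1 library only those without Fl/Fl 28 or untreated 36 did, and the call was lost with DESeq2 (adjusted p = 0.0599) and with labelled sex as covariate (adjusted p = 0.0602). Oasl2, an oligoadenylate synthetase-like protein that enhances RNA sensing, had 0.253, 0.349, 0.350, 0.269 and 0.110 CPM in untreated Fl/+ libraries. It reached 0.203, 0.506, 0.474, 1.18 and 0.635 CPM in treated Fl/+ and 0.683, 1.12, 0.787, 1.43 and 1.46 CPM in Fl/Fl libraries. All Fl/Fl libraries were above the untreated ones (2.04 ± 0.38 with no filter, adjusted p = 0.00200, since Oasl2 passed the filter only through the Fl/Fl libraries), while the treated Fl/+ libraries overlapped both other groups (0.88 ± 0.40 for deletion, adjusted p = 0.114).

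Ifitm3 was higher after 4-OHT in every mouse. It had 66.5, 36.0, 21.3, 10.2 and 9.57 CPM in untreated Fl/+, 114, 119, 70.9, 43.6 and 76.1 CPM in treated Fl/+ and 51.0, 62.8, 74.9, 68.2 and 75.2 CPM in Fl/Fl libraries. By fold the increase was smallest in mouse 19, whose untreated library was already the highest of its group. The difference was 1.56 ± 0.51 without the mouse block (adjusted p = 0.0632) and 1.84 with it (adjusted p = 0.00197). Without the block Ifitm3 was called with DESeq2, no filter, a shared spread or the mouse number series as a covariate (adjusted p = 0.00623 to 0.0496), and within mice 35 and 36 (adjusted p = 0.0127). Of 10 fits without 1 library, 1 called it, that without untreated 19 (adjusted p = 0.0153). Between Fl/Fl and Fl/+ 4-OHT cultures the difference was -0.34 ± 0.24 (adjusted p = 0.3003). Xaf1, a pro-apoptotic interferon target, had 1.19, 1.01, 0.350, 0.308 and 0.258 CPM in untreated, 1.42, 1.27, 1.11, 1.18 and 1.66 CPM in treated Fl/+ and 1.77, 1.26, 1.41, 3.17 and 1.35 CPM in Fl/Fl libraries. Each Fl/Fl library was above all untreated ones, and Fl/Fl 37, the library with high glial markers, was the highest. Xaf1 rose by 1.52 ± 0.47 (adjusted p = 0.0288) against untreated cultures, and the call was lost without Fl/Fl 37 (1.22, adjusted p = 0.0696) and also without Fl/Fl 27 or without untreated 26, 35 or 36.

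Bst2, or tetherin, which holds budding viruses on the membrane, was called for 4-OHT only with the mouse block (0.93, adjusted p = 0.0303, higher in 5 of 5 mice). Ifit2, which binds RNA like Ifit1, fell with the block (-0.37, adjusted p = 0.0264, lower in 5 of 5 mice) and had means of 28.7 ± 6.60 and 28.0 ± 6.87 CPM in treated Fl/+ and Fl/Fl cultures. Ifit3 reached 1.97 CPM in Fl/Fl 37 and 0.373 to 1.04 CPM in the other Fl/Fl libraries, and was called in no comparison over all libraries (without Fl/Fl 27 it was for deletion, adjusted p = 0.0472). Ifi35 and Samhd1, a nucleotide hydrolase that starves viruses of building blocks, were not called either, apart from Ifi35 between Fl/Fl and untreated cultures without untreated 24 (adjusted p = 0.0434), with Samhd1 means of 33.6 to 37.6 CPM in the 3 groups.

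**Figure D4:**
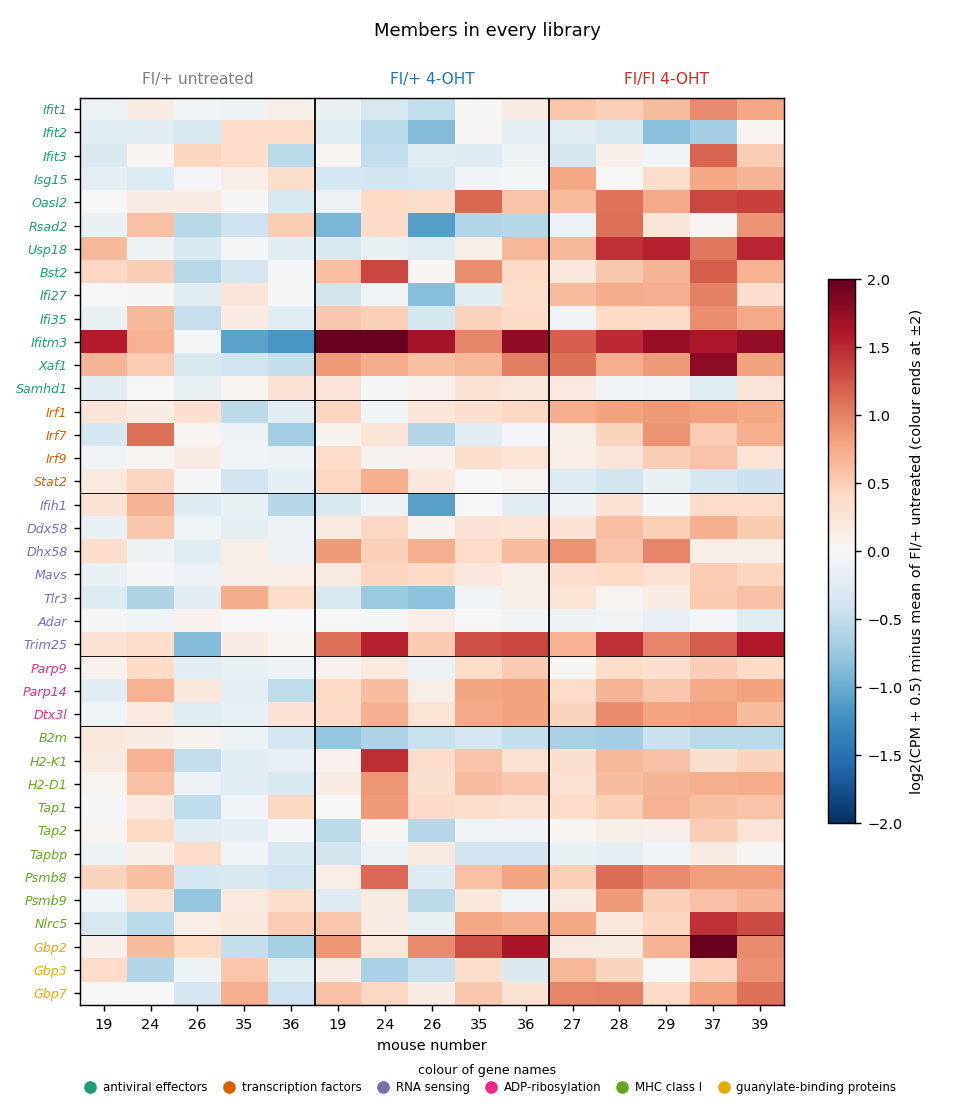
Each tested member (rows, grouped by role class) in each of the 15 libraries (columns, by mouse number), as log2(CPM + 0.5) minus the mean of the untreated Fl/+ libraries. Ifit1, Usp18, Irf1 and Ifi27 are red across the Fl/Fl columns, Trim25 and Ifitm3 are red across both 4-OHT groups, and B2m is blue in both.

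The median of the 35 members tested in all comparisons, taken per library as log2 deviation from the untreated mean, ran from 0.27 (Fl/Fl 27) to 0.59 (Fl/Fl 37) in the Fl/Fl, from 0.09 to 0.35 in the treated Fl/+ and from -0.20 to 0.30 in the untreated libraries. Untreated library 24 stood above the other untreated ones and above 4 of the 5 treated Fl/+ libraries. By this median the 3 groups overlapped.

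Transcription factors split in direction after Trrap deletion. Irf1, which activates class I and interferon genes, had 14.5, 13.4, 15.3, 8.27 and 10.3 CPM in untreated and 16.4, 11.4, 14.4, 15.4 and 16.2 CPM in treated Fl/+ libraries. The Fl/Fl libraries stood close together at 20.3, 21.4, 22.2, 21.8 and 21.01 CPM, above all 10 Fl/+ libraries. Irf1 rose by 0.55 ± 0.11 (adjusted p = 0.00316) after deletion and by 0.80 ± 0.17 (adjusted p = 0.00436) against untreated cultures. Irf7, the factor that amplifies type I interferon production, had 0.181, 1.36, 0.385, 0.308 and 0.0368 CPM in untreated, 0.406, 0.538, 0.0790, 0.243 and 0.353 CPM in treated Fl/+ and 0.435, 0.680, 1.11, 0.735 and 0.938 CPM in Fl/Fl libraries. The single highest value was that of untreated library 24, and Fl/Fl 27 lay within the treated Fl/+ range. Its rise of 1.25 ± 0.40 (adjusted p = 0.0340) held in 3 of 10 fits without 1 library (without Fl/Fl 27, Fl/+ 4-OHT 24 or Fl/+ 4-OHT 26), and was lost with no filter (adjusted p = 0.0532) and with a spread shared by all 15 libraries (adjusted p = 0.142).

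Stat2, a partner of IRF9 in type I interferon signalling, moved the other way. It had 27.4, 32.5, 23.2, 18.2 and 20.8 CPM in untreated Fl/+, 32.04, 39.3, 27.8, 24.1 and 24.8 CPM in treated Fl/+ and 19.98, 18.5, 21.6, 18.8 and 17.7 CPM in Fl/Fl libraries. All Fl/Fl libraries were below all treated Fl/+ libraries, but within the range of the untreated ones for 4 of 5. The log2 fold change after deletion was -0.60 ± 0.14 (adjusted p = 0.00723) and against untreated cultures -0.32 ± 0.15 (adjusted p = 0.131). With 4-OHT alone Stat2 was higher in 5 of 5 mice (0.29 with the block, adjusted p = 0.0296, and 0.28 with adjusted p = 0.331 without it). Irf9, the DNA-binding subunit of the same complex, had 11.1, 12.1, 13.1, 11.1 and 10.8 CPM in untreated, 15.1, 12.2, 12.4, 14.9 and 14.2 CPM in treated Fl/+ and 12.8, 13.8, 16.5, 17.5 and 14.2 CPM in Fl/Fl libraries. Its difference after deletion was 0.14 ± 0.12 (adjusted p = 0.398), and it rose by 0.38 ± 0.13 against untreated cultures (adjusted p = 0.0425), a call that 8 of the 10 fits without 1 library lost and only those without Fl/Fl 27 or untreated 26 kept, and that was lost with no filter (adjusted p = 0.0896). Of Irf9's exon bases 2.3% overlap those of Rnf31 on the same strand.

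Of 7 RNA sensing members 2 (28.6%) were higher after Trrap deletion and 0 lower, beside 16.8% and 15% of all genes. Tlr3, which senses double-stranded RNA in endosomes, had 22.98, 18.1, 23.8, 46.7 and 35.9 CPM in untreated, 22.3, 16.5, 15.5, 26.1 and 30.1 CPM in treated Fl/+ and 33.6, 29.1, 31.0, 40.3 and 42.02 CPM in Fl/Fl libraries. Only Fl/Fl 28 reached into the treated Fl/+ range, whereas the untreated libraries of mice 35 and 36 were as high as the Fl/Fl ones. The rise was 0.69 ± 0.18 (adjusted p = 0.0156) after deletion and 0.27 ± 0.23 (adjusted p = 0.414) against untreated cultures. Ddx58, which encodes the cytoplasmic sensor RIG-I, had 10.1, 16.6, 10.6, 9.81 and 10.3 CPM in untreated, 12.9, 15.2, 11.9, 13.9 and 13.7 CPM in treated Fl/+ and 13.9, 17.3, 15.9, 18.8 and 16.5 CPM in Fl/Fl libraries. Untreated library 24 stood far above its group. The rise after deletion was small at 0.30 ± 0.11 (adjusted p = 0.0488) and, of the fits without 1 library, held only without Fl/Fl 27 or without Fl/+ 4-OHT 24. It was also lost with DESeq2 size factors, with no filter, with at least 10 counts in every library, with a shared spread and with labelled sex as covariate (adjusted p = 0.0502 to 0.147). Against untreated cultures it rose by 0.53 ± 0.16 (adjusted p = 0.0303), kept only without Fl/Fl 27 or without untreated 24. Ifih1, which encodes the sensor MDA5 for long double-stranded RNA, had 2.35, 3.21, 1.43, 1.62 and 1.07 CPM in untreated, 1.39, 1.65, 0.593, 1.803 and 1.48 CPM in treated Fl/+ and 1.68, 2.35, 1.77, 2.51 and 2.5002 CPM in Fl/Fl libraries, and did not pass the test for deletion (0.65 ± 0.27, adjusted p = 0.0883).

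Trim25, the ubiquitin ligase that acts with RIG-I, was higher in treated Fl/+ and in treated Fl/Fl cultures than in untreated Fl/+ ones. Untreated libraries had 4.56, 4.78, 1.78, 4.16 and 3.83 CPM, treated Fl/+ libraries 8.45, 11.5, 5.45, 9.60 and 10.02 CPM and Fl/Fl libraries 6.24, 11.0, 7.70, 9.09 and 12.0 CPM. Every treated library of either genotype exceeded every untreated one. Its log2 fold changes were 1.24 ± 0.28 with 4-OHT (adjusted p = 0.0139; higher in 5 of 5 mice), 0.04 ± 0.22 for deletion (adjusted p = 0.897) and 1.28 ± 0.27 for both (adjusted p = 0.00497). Dhx58, or LGP2, a relative of RIG-I without signalling domains, had 0.941, 0.558, 0.455, 0.731 and 0.552 CPM in untreated, 1.55, 1.08, 1.38, 0.971 and 1.23 CPM in treated Fl/+ and 1.62, 1.19, 1.74, 0.735 and 0.729 CPM in Fl/Fl libraries. The Fl/Fl libraries of mice 37 and 39 lay within the untreated range, and the other 3 lay above it. Its rise with 4-OHT was 0.94 ± 0.25 (adjusted p = 0.0298), which 6 of 10 fits without 1 library lost (adjusted p up to 0.0765), namely those without treated 19, 26 or 36 and without untreated 24, 26 or 35, and which was also lost with no filter (adjusted p = 0.0784). These fits do not pair the libraries of a mouse. With the mouse block Dhx58 was called (0.95, adjusted p = 0.0213, higher in 5 of 5 mice).

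Mavs, the mitochondrial adaptor that RIG-I and MDA5 signal through, rose by 0.41 ± 0.08 (adjusted p = 0.00415) between untreated Fl/+ and Fl/Fl cultures, with 39.0 ± 3.60 and 51.2 ± 3.19 CPM and no overlap, and had 47.2 ± 4.56 CPM in treated Fl/+ cultures. Adar, which edits double-stranded RNA and so hides cellular RNA from the sensors, varied little. Its libraries had 84.4, 81.9, 90.5, 84.8 and 86.4 CPM untreated, 85.1, 83.2, 93.7, 84.9 and 81.9 CPM in treated Fl/+ and 78.8, 81.4, 76.3, 83.9 and 72.3 CPM in Fl/Fl cultures. The difference of -0.11 ± 0.06 after deletion did not pass the test (adjusted p = 0.200).

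The ADP-ribosylation module comprises the macrodomain proteins Parp9 and Parp14 and the ubiquitin ligase Dtx3l, partner of PARP9. Dtx3l and Parp9 lie head to head on chromosome 16, on opposite strands, and their starts overlap. After Trrap deletion edgeR called 0 of 3, beside 31.7% of all genes (0 at an unadjusted p below 0.05, 0 with DESeq2), with log2 fold changes of 0.09 to 0.16. Parp9 had 9.30, 11.8, 7.56, 7.85 and 8.03 CPM in untreated, 9.36, 10.1, 8.06, 11.4 and 12.8 CPM in treated Fl/+ and 8.92, 11.5, 11.1, 12.6 and 11.6 CPM in Fl/Fl libraries, with wide overlap. Dtx3l had 4.78, 5.89, 4.23, 4.502 and 6.33 CPM in untreated, 6.83, 8.67, 6.28, 8.94 and 9.24 CPM in treated Fl/+ and 7.11, 10.2, 9.21, 9.40 and 8.20 CPM in Fl/Fl libraries. All Fl/Fl libraries exceeded the untreated ones, and of the treated Fl/+ libraries only that of mouse 26 did not. Dtx3l rose by 0.64 ± 0.18 with 4-OHT (adjusted p = 0.0342, lost in 6 of 10 fits without 1 library: treated 24, 35 or 36, untreated 19, 26 or 35, and with no filter, adjusted p = 0.0701) and by 0.79 ± 0.17 for both (adjusted p = 0.00498). With the mouse block Dtx3l was called for 4-OHT (0.64, adjusted p = 0.0120, higher in 5 of 5 mice). Parp14 had 1.74, 3.73, 2.52, 1.81 and 1.33 CPM in untreated, 2.94, 3.48, 2.33, 4.02 and 4.06 CPM in treated Fl/+ and 2.86, 3.67, 3.28, 3.90 and 4.06 CPM in Fl/Fl libraries and was not called in the 3 comparisons. Between Fl/Fl and untreated cultures it was called with DESeq2, labelled sex, a shared spread or total-count scaling (adjusted p = 0.0232 to 0.04998) and without untreated 24 (adjusted p = 0.0133), and for 4-OHT it was called without untreated 24 (adjusted p = 0.0474).

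Within the MHC class I pathway B2m, the light chain, fell with 4-OHT, while the heavy chains H2-K1 and H2-D1 were called higher with the mouse block but not without it. B2m had 157, 148, 140.1, 124 and 104 CPM in untreated, 77.9, 87.0, 97.7, 106 and 96.0 CPM in treated Fl/+ and 84.8, 82.9, 99.0, 91.3 and 91.2 CPM in Fl/Fl libraries. All Fl/Fl libraries lay below all untreated ones, and of the treated Fl/+ libraries only that of mouse 35 reached the lowest untreated value. B2m fell by 0.53 on the log2 scale with 4-OHT (SE 0.12, adjusted p = 0.0147; lower in 5 of 5 mice), differed by -0.03 ± 0.09 for deletion (adjusted p = 0.807) and fell by 0.57 for both (SE 0.11, adjusted p = 0.00309). Within mice 35 and 36 the difference of B2m with 4-OHT was smaller and not called (-0.16, adjusted p = 0.458). H2-K1 went from 59.4 ± 20.5 to 89.6 ± 39.9 CPM with 4-OHT, a rise called with the block (0.57, adjusted p = 0.0186, higher in 4 of 5 mice) and within mice 35 and 36 (0.66, adjusted p = 0.0401), but not over all libraries without the block (0.59, adjusted p = 0.193). The highest treated Fl/+ library had 159 CPM of H2-K1, and without the block leaving out 1 library gave 0.30 to 0.81. H2-D1 went from 21.4 ± 5.97 to 30.1 ± 6.03 CPM (0.51 with the block, adjusted p = 0.0229, higher in 5 of 5 mice; 0.50 and adjusted p = 0.110 without) and was also called within mice 35 and 36 (0.88, adjusted p = 0.0218) and without untreated 24 (0.68, adjusted p = 0.0211). It stood at 32.4 ± 3.78 CPM in Fl/Fl cultures, 0.61 ± 0.17 above untreated ones (adjusted p = 0.0195). This call was lost within mice 19 to 29 (0.35, adjusted p = 0.207) and within mice 35 to 39 (1.04, adjusted p = 0.0555).

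Psmb9, Tap1, Psmb8 and Tap2, which make and transport the peptides, lie within 34.3 kb of each other at chr17:34181987-34216321. Psmb9 and Tap1 start from opposite strands and share a promoter region, so the RefSeq promoter of Psmb9 is shown, at chr17:34187281-34187580 on the minus strand, with its GC box (GGGCGG, a site type bound by Sp1 family factors and present in 35.7% of all promoters) in capitals. It held no ISRE or GAS letters.
Psmb9 promoter: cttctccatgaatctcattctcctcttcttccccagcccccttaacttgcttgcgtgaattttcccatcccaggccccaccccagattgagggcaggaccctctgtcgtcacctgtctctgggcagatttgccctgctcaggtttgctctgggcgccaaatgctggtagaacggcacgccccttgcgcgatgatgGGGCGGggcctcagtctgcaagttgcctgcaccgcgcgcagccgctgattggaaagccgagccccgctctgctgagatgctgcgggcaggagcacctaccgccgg
After Trrap deletion Psmb9 and Tap2 were higher, whereas Tap1 and Psmb8 did not pass the test.

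Psmb9 had 1.81, 2.48, 0.909, 2.27 and 2.58 CPM in untreated, 1.52, 2.25, 1.19, 2.29 and 1.799 CPM in treated Fl/+ and 2.24, 3.87, 2.85, 3.13 and 3.37 CPM in Fl/Fl libraries. Only Fl/Fl 27 lay in the treated Fl/+ range. The rise was 0.78 ± 0.22 (adjusted p = 0.0205) and was lost without Fl/Fl 28 (0.68, adjusted p = 0.0571) or without Fl/+ 4-OHT 19 (0.71, adjusted p = 0.0556). Tap2, a subunit of the peptide transporter, had 19.0, 24.2, 15.5, 15.9 and 17.9 CPM in untreated, 12.5, 19.1, 12.2, 17.5 and 17.5 CPM in treated Fl/+ and 18.9, 19.9, 19.7, 25.8 and 21.8 CPM in Fl/Fl libraries. The Fl/Fl libraries were above the treated Fl/+ ones but for Fl/Fl 27 against Fl/+ 24, and overlapped the untreated ones. Its rise of 0.44 ± 0.15 (adjusted p = 0.0392) held, of the fits without 1 library, only without Fl/Fl 27 or without Fl/+ 4-OHT 24, and was lost with no filter (adjusted p = 0.0579).

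Tap1, the other transporter subunit, and Psmb8 were higher in Fl/Fl than in untreated Fl/+ cultures, Tap1 by 0.54 ± 0.16 (adjusted p = 0.0264) and Psmb8 by 0.97 ± 0.30 (adjusted p = 0.0290). Leaving out 1 library ended the call of Tap1 in 5 fits (Fl/Fl 29, 37 or 39, untreated 19 or 35) and that of Psmb8 in 6 (Fl/Fl 28, 29 or 39, untreated 26, 35 or 36). Nlrc5, the transactivator of class I genes, had 0.398, 0.279, 0.735, 0.808 and 1.10 CPM in untreated, 1.15, 0.760, 0.514, 1.42 and 1.34 CPM in treated Fl/+ and 1.43, 0.816, 1.02, 2.59 and 2.29 CPM in Fl/Fl libraries. Mice 37 and 39 were the highest of all. The difference for deletion was 0.66 ± 0.37 (adjusted p = 0.201), and the rise of 1.30 ± 0.43 against untreated cultures (adjusted p = 0.0388) was kept, of the fits without 1 library, only without Fl/Fl 28, Fl/Fl 29 or untreated 36, and was lost with no filter (adjusted p = 0.0502) and with labelled sex as covariate (adjusted p = 0.0614). Tapbp, or tapasin, the chaperone of the loading complex, was called in no comparison over all libraries, with means of 48.1 ± 8.80 CPM in untreated Fl/+, 41.4 ± 7.55 CPM in treated Fl/+ and 46.2 ± 4.505 CPM in Fl/Fl cultures. Without Fl/+ 4-OHT 26 it was called for deletion (adjusted p = 0.0498), and 4.1% of its exon bases overlap Zbtb22.

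Guanylate-binding proteins are large GTPases that attack membranes of pathogens, and the 3 members lie within 108 kb of each other on chromosome 3. Gbp3 had 41.0, 20.8, 29.5, 46.4 and 26.7 CPM in untreated, 35.4, 20.01, 22.99, 40.3 and 25.6 CPM in treated Fl/+ and 50.2, 43.1, 31.7, 43.6 and 60.2 CPM in Fl/Fl libraries. Fl/Fl 29 was the only one inside the treated Fl/+ range, and mice 19 and 35 were the highest Fl/+ mice with and without 4-OHT. The rise after deletion was 0.68 ± 0.21 (adjusted p = 0.0298) and was lost in 6 of 10 fits without 1 library (Fl/Fl 27, 28 or 39, Fl/+ 4-OHT 24, 26 or 36; adjusted p up to 0.0753). Gbp7 had 22.3, 22.3, 17.5, 36.7 and 16.5 CPM in untreated, 33.3, 29.6, 24.6, 32.2 and 27.3 CPM in treated Fl/+ and 44.1, 44.4, 29.2, 38.8 and 48.2 CPM in Fl/Fl libraries. Again only Fl/Fl 29 overlapped the treated Fl/+ libraries. It rose by 0.49 ± 0.13 (adjusted p = 0.0166) after deletion and by 0.84 ± 0.21 (adjusted p = 0.0119) for both, and 11.3% of its exon bases overlap the gene Gm43802. The deletion call was lost with a spread shared by all 15 libraries (adjusted p = 0.0765). It was also lost within mice 19 to 29 (adjusted p = 0.152) and within mice 35 to 39 (adjusted p = 0.120), where 0 genes were called at all. Rsad2, Irf7, Ddx58, Tap2, Psmb9 and Gbp3 likewise lost their deletion calls in both series.

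Gbp2, the third neighbour, had 7.42, 11.0, 9.30, 4.85 and 4.16 CPM in untreated, 13.05, 8.20, 13.7, 17.7 and 22.5 CPM in treated Fl/+ and 7.95, 7.92, 11.4, 32.7 and 13.8 CPM in Fl/Fl libraries. Fl/Fl 37 held the highest value of all 15 libraries, while Fl/Fl 27 and 28 were below every treated Fl/+ library. The difference was -0.02 ± 0.39 for deletion (adjusted p = 0.981) and 1.03 ± 0.32 for 4-OHT (adjusted p = 0.0511). The 4-OHT difference was not called with the mouse block (1.04, adjusted p = 0.0713, higher in 4 of 5 mice), but was called with DESeq2 (adjusted p = 0.00973), with total-count scaling, no filter, at least 10 counts in every library, labelled sex or the mouse number series (adjusted p = 0.0435 to 0.0491), within mice 35 and 36, and without untreated or treated library 24 (adjusted p = 0.0326 and 0.0301).

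**Figure D5:**
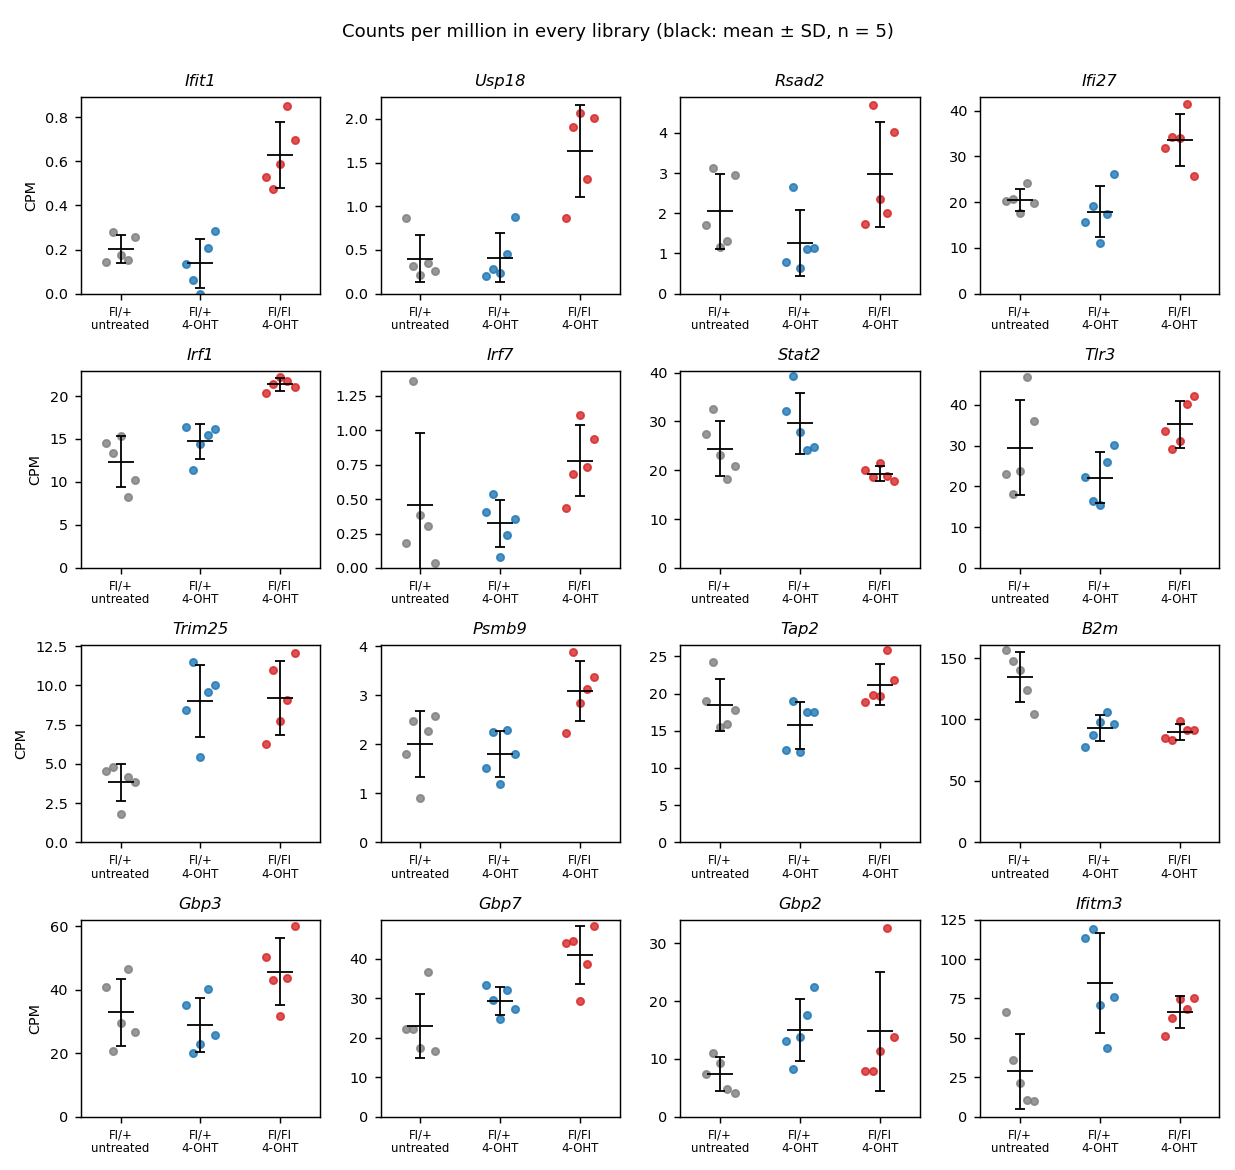
CPM of 16 members in every library (points), with mean ± SD of 5 libraries per group in black, for untreated Fl/+, Fl/+ 4-OHT and Fl/Fl 4-OHT cultures; each panel has its own linear axis from 0. Irf1 and Ifit1 separate the Fl/Fl libraries from all others, Trim25 separates untreated from treated ones, and Stat2 is lowest in Fl/Fl cultures.

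Of the 14 members with an ISRE match 12 were tested for Trrap deletion, of which 5 were higher and 1 was lower, with a median log2 fold change of 0.40. Without Ifit1, these were 4 and 1 of 11, with a median of 0.30. Of the 20 matched members without an ISRE match, 19 were tested, 4 were higher and 0 lower, with a median of 0.16. Over all genes 16.8% were higher and 15% lower, with a median of 0.017. For 4-OHT 0 of 11 members with a match were higher and 1 was lower (median 0.23), and 2 of 18 without one were higher and 0 lower (median 0.27), beside 7.34% and 6.45% of all genes. For both changes 4 of 13 with a match were higher and 1 was lower (median 0.54), against 10 and 0 of 19 without one (median 0.61). Leaving out Ifit1, Isg15, Oasl2 and Usp18, these were 2 and 1 of 11 (median 0.54) and 9 and 0 of 18 (median 0.58), beside 15.7% higher and 15.1% lower over all genes. These counts describe letters within 300 bases only.

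The pathway around the members was read from 92 further genes. All 10 interferon genes listed, Ifnb1 and Ifng among them, had 0 counts in all 15 libraries. Of 9 receptor subunits and kinases 8 were tested in every comparison, while Ifnlr1, a subunit of the interferon lambda receptor, was too low to test for 4-OHT. Ifngr1, a subunit of the interferon gamma receptor, had 36.1 ± 2.95 CPM in untreated, 37.2 ± 4.43 CPM in treated Fl/+ and 46.3 ± 1.72 CPM in Fl/Fl cultures and rose by 0.33 ± 0.08 after deletion (adjusted p = 0.0125). Jak2, a kinase of the same receptor, ran from 89.8 to 109 CPM in treated Fl/+ and from 66.8 to 73.8 CPM in Fl/Fl libraries, with no overlap, and fell by 0.51 (SE 0.07, adjusted p = 0.000416). Ifnar1, a subunit of the type I receptor, had 152 ± 14.2 and 127 ± 12.3 CPM in the same groups (-0.25 ± 0.09, adjusted p = 0.0564). Ifnar2, Ifngr2, Il10rb, Ifnlr1, Jak1 and Tyk2 were not called for deletion.

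Tmem173, which encodes the DNA pathway adaptor STING, rose by 1.69 ± 0.28 (adjusted p = 0.00150), from 3.16 to 8.35 CPM in treated Fl/+ to 13.9 to 30.8 CPM in Fl/Fl libraries, with no overlap. Ciita, the transactivator of MHC class II, rose by 1.42 ± 0.43 (adjusted p = 0.0278) at 0.242 ± 0.123 and 0.658 ± 0.341 CPM, with the call kept in 5 of 10 fits without 1 library. Eif2ak2, the kinase PKR that stops translation on double-stranded RNA and a gene picked after its values were seen, rose by 0.44 (adjusted p = 0.0377). Among 20 tested other interferon-stimulated genes 6 were higher and 1 lower after deletion, and among 16 tested antigen presentation genes 3 were higher and 1 lower. In all, 13 of the 63 pathway genes tested were higher (20.6%) and 3 lower (4.76%), with a median of 0.19, which makes 25.4% called against 31.7% of all genes (16.8% higher and 15% lower). For 4-OHT 7 of 61 were higher (11.5%) and 2 lower (3.28%), beside 7.34% and 6.45% of all genes. With the mouse block they were 11 and 2, 21.3% in all beside 25.7% of all genes.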

How the data were processed

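RNA-seq gene counts of 15 aNSC libraries were used as the authors deposited them, as whole-number counts per Ensembl gene without normalization. The submitters' processing notes name bcl2fastq 1.8.4, STAR 2.5.4b, featureCounts 1.5.0 and build GRCm38. Only uniquely mapped reads were counted, so near-identical paralogs are uncertain. Symbols and exon lengths came from a GENCODE annotation of the same build. CPM were scaled by TMM factors over all 15 libraries.

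Each comparison was fitted on its 10 libraries with edgeR 4.0.16 (R 4.3.3) after a filter at 10 counts, by the quasi-likelihood test with Benjamini-Hochberg adjustment over all genes tested. DESeq2 1.42.0 was an alternative. Single genes had exact two-sided permutation tests on log2(CPM + 0.5). Libraries of the same mouse correlated at 0.156 to 0.626 in their deviations from group means, different mice at -0.549 to 0.339 (15400 genes), and the labels give the same mice, so the mouse block is a paired fit. Each mouse gave 1 library per condition.

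Values in each library were given for the member of each class with the highest CPM and the 3 with the largest change after Trrap deletion above 1 CPM, and for further members chosen after their values were seen. Members and lists were chosen with earlier results of these data known. Values of 1 further pathway gene and 2 marker genes are not reported here.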

Additional observations from a re-analysis of the deposited data

Results flagged for a closer look

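In 7 of 117 member-by-group sets of 5 libraries (5.98%), 1 library lay far from the other 4 by Dixon's criterion, where chance gives about 5%. Usp18 was high in untreated Fl/+ 19 (0.868 CPM, others 0.210 to 0.346 CPM). Ddx58 was high in untreated Fl/+ 24 (16.6 CPM, others 9.81 to 10.6 CPM). Trim25 was low in untreated Fl/+ 26 (1.78 CPM, others 3.83 to 4.78 CPM). Library Fl/+ 4-OHT 26 was set apart for 3 members, being low for Ifi35 (0.119 CPM, others 0.529 to 0.642 CPM) and Ifih1 (0.593 CPM, others 1.39 to 1.803 CPM) and high for Adar (93.7 CPM, others 81.9 to 85.1 CPM). H2-D1 was low in Fl/Fl 27 (25.9 CPM, others 32.4 to 35.3 CPM).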

How the results depend on the processing

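For Trrap deletion the number of members called higher, 12, ran from 7 to 12 when each library was left out in turn, and the number called lower stayed at 1. These counts include Ifit1 and, in 6 fits, Isg15, which were above the filter's cutoff in 0 treated Fl/+ libraries. The number called higher was 5 within mice 19 to 29, and 0 were higher and 0 lower within mice 35 to 39. For 4-OHT the 3 members called higher became 5 with total-count scaling, 5 with a spread shared by all 15 libraries, 5 with the mouse number series as a covariate and 6 with DESeq2. With the mouse as replicate block they became 9 higher and 3 lower. They ran from 1 to 5 when a library was left out, and were 0 within mice 19 to 29 and 8 within mice 35 to 39, where 0 were lower and the median rose to 0.45. For both changes the 17 higher members include Ifit1, Isg15, Oasl2 and Usp18, which passed the filter mainly through the Fl/Fl libraries. The higher members ran from 11 to 20 and the lower ones from 1 to 2 when a library was left out. They were 11 higher and 2 lower within mice 19 to 29, with a median of 0.43, and 1 higher and 0 lower within mice 35 to 39. The cause was not tested, although within-series fits hold fewer libraries. The other counts stayed within 1.5 times the main one.

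No member called in a comparison changed direction under any alternative run. Signs turned only for members that had not passed the test, on the log2 scale as follows. For Trrap deletion within mice 19 to 29 the values were -0.0443 for Trim25, -0.0937 for Ifi35, 0.17 for Dhx58, -0.0579 for Tapbp, -0.0135 for Mavs, 0.0864 for Ifit2 and 0.0115 for B2m, within mice 35 to 39 0.28 for Ifitm3, 0.22 for Gbp2, -0.0073 for Parp14, 0.36 for Bst2 and -0.0361 for Dtx3l, with total-count scaling 0.0096 for Dhx58, 0.0003 for Gbp2, 0.0073 for Ifit2 and 0.0004 for B2m, and with labelled sex as covariate 0.0009 for Ifit2. For 4-OHT they were -0.0331 for Irf1 and -0.0509 for Parp9 within mice 19 to 29, 0.0736 for Tap2, 0.31 for Ifih1, -0.0188 for Adar and 0.0049 for Ifi27 within mice 35 to 39, -0.0028 for Adar with DESeq2 size factors and -0.0031 for Adar with DESeq2. For both they were -0.0004 for Tap2, -0.27 for Ifih1, -0.0174 for Gbp2 and -0.31 for Ifit3 within mice 19 to 29, 0.28 for Tapbp and -0.14 for Samhd1 within mice 35 to 39 and 0.0447 for Tapbp with total-count scaling. Leaving out 1 library turned signs within ranges of -0.10 to 0.0025 for B2m, -0.25 to 0.22 for Bst2, -0.21 to 0.10 for Dhx58, -0.55 to 0.16 for Gbp2, -0.29 to 0.14 for H2-K1, -0.15 to 0.0679 for Ifit2, -0.0244 to 0.16 for Parp14 and -0.10 to 0.16 for Trim25 for deletion, -0.0127 to 0.0332 for Adar and -0.77 to 0.52 for Irf7 for 4-OHT and -0.0338 to 0.11 for Samhd1 and -0.12 to 0.0619 for Tapbp for both. Members below 1 CPM, 10 of the 42, rest on few counts, so that small differences were not detectable at this depth.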
